A study of Mus musculus with 24 samples.

Results

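This account follows 36 genes of blood and lymphatic vessels, the endothelial genes, in mouse mammary glands exposed to progesterone. The choice was by gene name, with earlier results of these data known: markers of the cells that line vessels, receptors and ligands that steer vessel growth, and markers of lymphatic vessels. All 36 were on the Affymetrix Mouse Genome 430 2.0 array, out of 18193 genes with a probe set of their own. Where several probe sets were annotated to a gene alone, the one with the highest average log2 value over the 24 arrays stood for it. Of the 36, 34 were tested, among 12337 genes tested in all. The selectin Sele and the lymphatic transcription factor Prox1 were not tested, because they lay under the array median on each of the 24 arrays, with mean values of 30.3 and 29.0 array units. The other 34 lay above the median on all 24 arrays, among them the defining endothelial markers Pecam1, Cdh5, Kdr and Tie1.

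The glands came from nulliparous Balb/c mice that had lost their ovaries at 6 weeks of age and then rested for 2 weeks, controls included. In 4 progesterone groups, 1 mg of progesterone in 100 µl of sesame oil was injected under the skin each day, and glands were taken 4, 16, 28 or 76 h after the first injection. In 4 oil groups, killed at the same times, the injection was 100 µl of sesame oil alone. Each of the 8 groups had 3 arrays, each from the pooled RNA of 5 mice, and whole glands were measured. Fewer cells of a type and less RNA per cell therefore cannot be told apart. Array medians lay between 62.8 and 70.2 units, and arrays of a group correlated at 0.965 to 0.993. The 28 h oil arrays stood apart from the other oil arrays for several members, Cd34 above all, so calls at 28 h are given against both sets of controls. As a check on the hormone, the progesterone receptor gene Pgr fell by 2.45 (SE 0.21) on the log2 scale at 4 h (limma adjusted p = 2.01e-07), and was at 0.0046 at 76 h (limma adjusted p = 0.993). Wnt4, a signal that luminal cells send under progesterone, was at 0.99 at 4 h (limma adjusted p = 0.0686) and rose by 2.22 (SE 0.22) at 76 h (limma adjusted p = 1.47e-07).

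Endothelial cells line every blood and lymphatic vessel. They sense vascular endothelial growth factors (VEGFs) through the receptors Kdr, Flt1 and Flt4, and angiopoietins through the receptor Tek. Angpt1 from mural cells activates Tek and steadies the vessel, while Angpt2, made mostly by endothelial cells themselves, loosens it and accompanies remodelling. In the mammary gland, capillaries run through the fat pad and around the ducts, and this bed expands when the epithelium grows in pregnancy.

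Promoter sequences of 4 members are shown because their transcripts moved in different ways: Kdr, Tek and Robo4 fell at 76 h, and Pdpn rose. They read 5′ to 3′ along the gene's strand, come from RefSeq, build GRCm38.p6, and cover 300 bases each, most of them before the start in that table. The table's start lies inside the annotated gene for Kdr, Tek and Robo4. The annotated Kdr gene reaches to chr5:75979072, so its whole window lies inside the gene. The annotated Tek gene begins at chr4:94739086, so most of its window does too. Capitals mark GGAAG, a longer form of the GGAA core bound by ETS factors such as Erg, on either strand (CTTCC as printed). They also mark ACGTG, a core found in hypoxia response elements, on either strand. The windows are chr5:75978406-75978705 for Kdr (minus strand), chr4:94739039-94739338 for Tek (plus), chr9:37401722-37402021 for Robo4 (plus) and chr4:143299515-143299814 for Pdpn (minus).
Kdr: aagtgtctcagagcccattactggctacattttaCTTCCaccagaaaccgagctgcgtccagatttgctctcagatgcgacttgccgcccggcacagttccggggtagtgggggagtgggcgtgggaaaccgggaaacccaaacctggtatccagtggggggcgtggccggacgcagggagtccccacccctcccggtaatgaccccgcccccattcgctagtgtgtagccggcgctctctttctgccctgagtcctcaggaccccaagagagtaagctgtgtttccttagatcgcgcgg
Tek: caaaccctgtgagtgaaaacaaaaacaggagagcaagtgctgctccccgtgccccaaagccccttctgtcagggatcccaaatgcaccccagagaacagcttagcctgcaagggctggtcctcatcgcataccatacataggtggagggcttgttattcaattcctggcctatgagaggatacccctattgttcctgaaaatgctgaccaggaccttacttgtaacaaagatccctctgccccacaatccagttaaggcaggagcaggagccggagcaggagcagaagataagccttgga
Robo4: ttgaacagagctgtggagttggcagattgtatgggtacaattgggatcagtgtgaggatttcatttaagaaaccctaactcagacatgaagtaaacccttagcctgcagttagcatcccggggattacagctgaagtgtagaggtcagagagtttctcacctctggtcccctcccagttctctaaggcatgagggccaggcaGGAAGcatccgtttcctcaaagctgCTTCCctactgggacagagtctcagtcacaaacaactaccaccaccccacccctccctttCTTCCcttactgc
Pdpn: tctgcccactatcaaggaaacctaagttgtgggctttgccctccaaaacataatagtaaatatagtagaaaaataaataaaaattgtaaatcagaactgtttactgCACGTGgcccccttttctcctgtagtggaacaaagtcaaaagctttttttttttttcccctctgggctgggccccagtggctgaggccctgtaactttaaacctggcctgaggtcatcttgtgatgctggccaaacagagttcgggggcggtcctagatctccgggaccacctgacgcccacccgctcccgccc

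Kdr had 1 match to GGAAG, Robo4 had 3 and Tek had 0. GGAA followed by another base was neither marked nor counted, so the 0 for Tek does not mean that its window lacks GGAA. Pdpn had 2 matches to ACGTG, which are 1 run of CACGTG read on both strands. Which factors bind this run was not tested. Among the 36 members, 22 had entries in the promoter table, with 28 promoters. GGAAG stood in 21 of these 28 (75.0%), against 71.4% of all 32851 promoters in the table. ACGTG stood in 2 of 28 (7.14%, Pdpn and Vegfa), against 19.6% of all. The GGAAG share of the members lay close to that of all promoters.

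The main comparison asked which endothelial transcripts differed between progesterone and oil at each time. The call rule was an adjusted p under 0.05 in a limma model over all 24 arrays, with Benjamini-Hochberg adjustment over the 12337 genes. Most calls fell at 76 h: 11 of the 34 members were lower after progesterone, where 6.67% of all tested genes were called lower, and 2 were higher, where 11.0% of all genes were. The lower ones were Cdh5, Kdr, Tek, Cldn5, Robo4, Ptprb, Esam, Icam2, Nos3, Mmrn2 and Vegfa, with log2 fold changes between -0.70 and -0.32. The higher ones were Angpt2 and Pdpn. The median change of the 34 members was -0.32, against 0.02 over all genes, and 29 of the 34 differences were negative. All 3 progesterone arrays lay below all 3 oil arrays for 18 members, where 19.0% of all genes showed that order, and above them for 3 members, Angpt2, Pdpn and Vegfc, where 25.7% did. At an unadjusted p under 0.05 there were 18 members, where 29.5% of all genes passed.

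**Figure D1:**
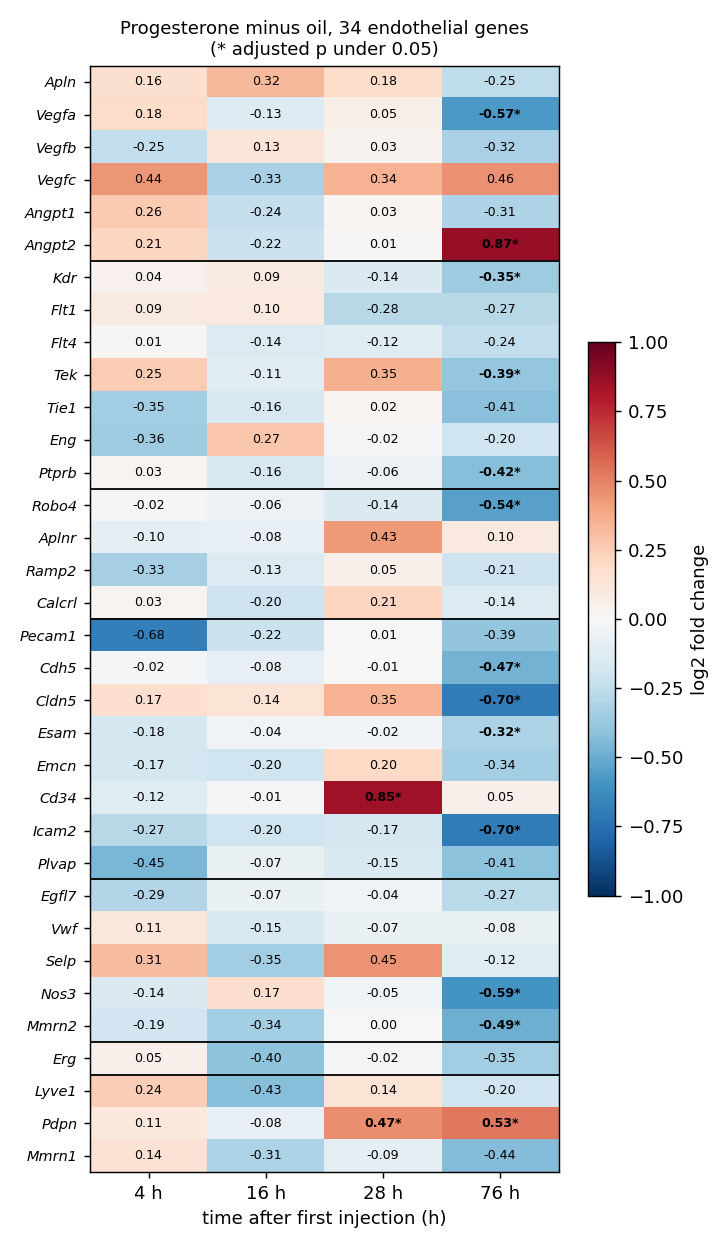
Log2 fold change, progesterone minus oil, for the 34 tested endothelial genes (rows, grouped by role from ligands at the top to lymphatic markers at the bottom) at 4, 16, 28 and 76 h (columns). Asterisks mark adjusted p under 0.05: 0 genes at 4 and 16 h, 2 at 28 h and 13 at 76 h, where most rows are negative (blue) and Angpt2 is the highest at 0.87.

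Among the 6 ligands, 1 was called higher (Angpt2) and 1 lower (Vegfa) at 76 h. Over all genes, 11.0% were called higher there and 6.67% lower. Angpt2 (GRCm38, chr8:18690263-18741562) measured 308, 278 and 273 units on the progesterone arrays, against 159, 138 and 175 on the oil arrays. The 2 groups were well separated, and no array of the earlier times exceeded 208. The log2 fold change was 0.87 (SE 0.15, 1.83-fold, limma adjusted p = 0.000243). Angpt1, the ligand that activates Tek, measured 263, 247 and 260 units on progesterone arrays, against 350, 296 and 310 on oil arrays. All 3 progesterone values were the lower ones, at -0.31 (SE 0.14), but the gene was not called (limma adjusted p = 0.128). Against the other-time oil arrays (the 9 oil arrays of the other 3 times), Angpt1 was called, at -0.54 (limma adjusted p = 0.000624).

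Vegfa, the main growth factor for blood vessels, had 635, 724 and 861 units after progesterone, against 1186, 1020 and 1080 after oil at 76 h. The ranges did not overlap, and the log2 fold change was -0.57 (SE 0.15, limma adjusted p = 0.00841). The oil level at 76 h was itself the highest of the oil groups, 1096 ± 84.2 units (SD, n = 3 arrays), where the earlier oil groups averaged 800.5 to 829. Against the other-time oil arrays the difference was -0.14 and was not called (limma adjusted p = 0.406). A second Vegfa probe set fell as well, by 0.46 on the log2 scale, in a fit over all probe sets (limma adjusted p = 0.0201).

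Vegfc, which drives lymphatic growth through Flt4, measured 205, 174 and 166 units on progesterone arrays, against 133, 142 and 121 on oil arrays. Its progesterone arrays lay above its oil arrays, yet 0.46 (SE 0.20) did not pass the test (limma adjusted p = 0.115). It was called against the other oil arrays, at 0.78 (limma adjusted p = 0.000616). Vegfb, a ligand of Flt1, was at -0.32 (SE 0.25), and Apln, the ligand of Aplnr, at -0.25, and both had overlapping groups.

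Of the 7 growth factor and angiopoietin receptors, 3 were called lower at 76 h, where 6.67% of all genes were. All 7 differences were negative. Kdr, the main signalling receptor for Vegfa, measured 927, 1042 and 1061 units on progesterone arrays, against 1370, 1318 and 1184 on oil arrays. The groups were apart, with a log2 fold change of -0.35 (SE 0.10, limma adjusted p = 0.0166), and the gap widened to -0.54 against the other oil arrays. Ptprb, a phosphatase that holds Tek and Kdr signalling in check, had 1058, 1038 and 1041 units after progesterone, against 1482, 1373 and 1350 after oil. Its 3 progesterone values were close together and its log2 fold change was -0.42 (SE 0.11, limma adjusted p = 0.0103). A second, dimmer Ptprb probe set was at -0.47 in the fit over all probe sets and was not called (limma adjusted p = 0.146).

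Tek, the angiopoietin receptor, measured 440, 456 and 483 units on progesterone arrays at 76 h, against 594, 620 and 591 on oil arrays. It fell by 0.39 on the log2 scale (SE 0.12, limma adjusted p = 0.0222). Its oil level varied with time, and against the other oil arrays the difference was -0.14 (limma adjusted p = 0.299). The Tek change differed between the 4 times: it was 0.25 at 4 h, -0.11 at 16 h and 0.35 at 28 h. The 28 h value turned its direction against the other-time oil arrays, at -0.24 (limma adjusted p = 0.271).

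Flt1, a VEGF receptor that also circulates as a soluble trap for the ligand, was read differently by its probe sets. The chosen one measured 420, 381 and 440 units after progesterone, against 493, 512 and 494 after oil at 76 h. These did not overlap, but -0.27 (SE 0.15) was not called (limma adjusted p = 0.229). The 3 other Flt1 probe sets, which are dimmer, were at -0.73, -0.82 and -0.64 and were all called in the fit over all probe sets (limma adjusted p = 0.0113, 0.00301 and 0.00856). The soluble and membrane forms share part of their sequence, and which form each probe set reads was not analysed here.

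Tie1, the partner of Tek, was at -0.41 (SE 0.20), Flt4 at -0.24 and Eng, a co-receptor for TGF-beta family ligands, at -0.20 (SE 0.17), and none of these was called. A second, dimmer Eng probe set was called at -0.44 (limma adjusted p = 0.0237). Robo4, an endothelial guidance receptor that limits leakiness, was the one called among the 4 other receptors. It was lower, where 6.67% of all genes were called lower. It measured 440, 392 and 406 units on progesterone arrays, against 649, 635 and 523 on oil arrays at 76 h. Robo4 was level between the groups at the 3 earlier times (-0.14 to -0.02) and at -0.54 (SE 0.11) at 76 h (limma adjusted p = 0.00139). Ramp2 and Calcrl, which together form the adrenomedullin receptor, were at -0.21 and -0.14, and Aplnr at 0.10, and none of them was called.

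**Figure D2:**
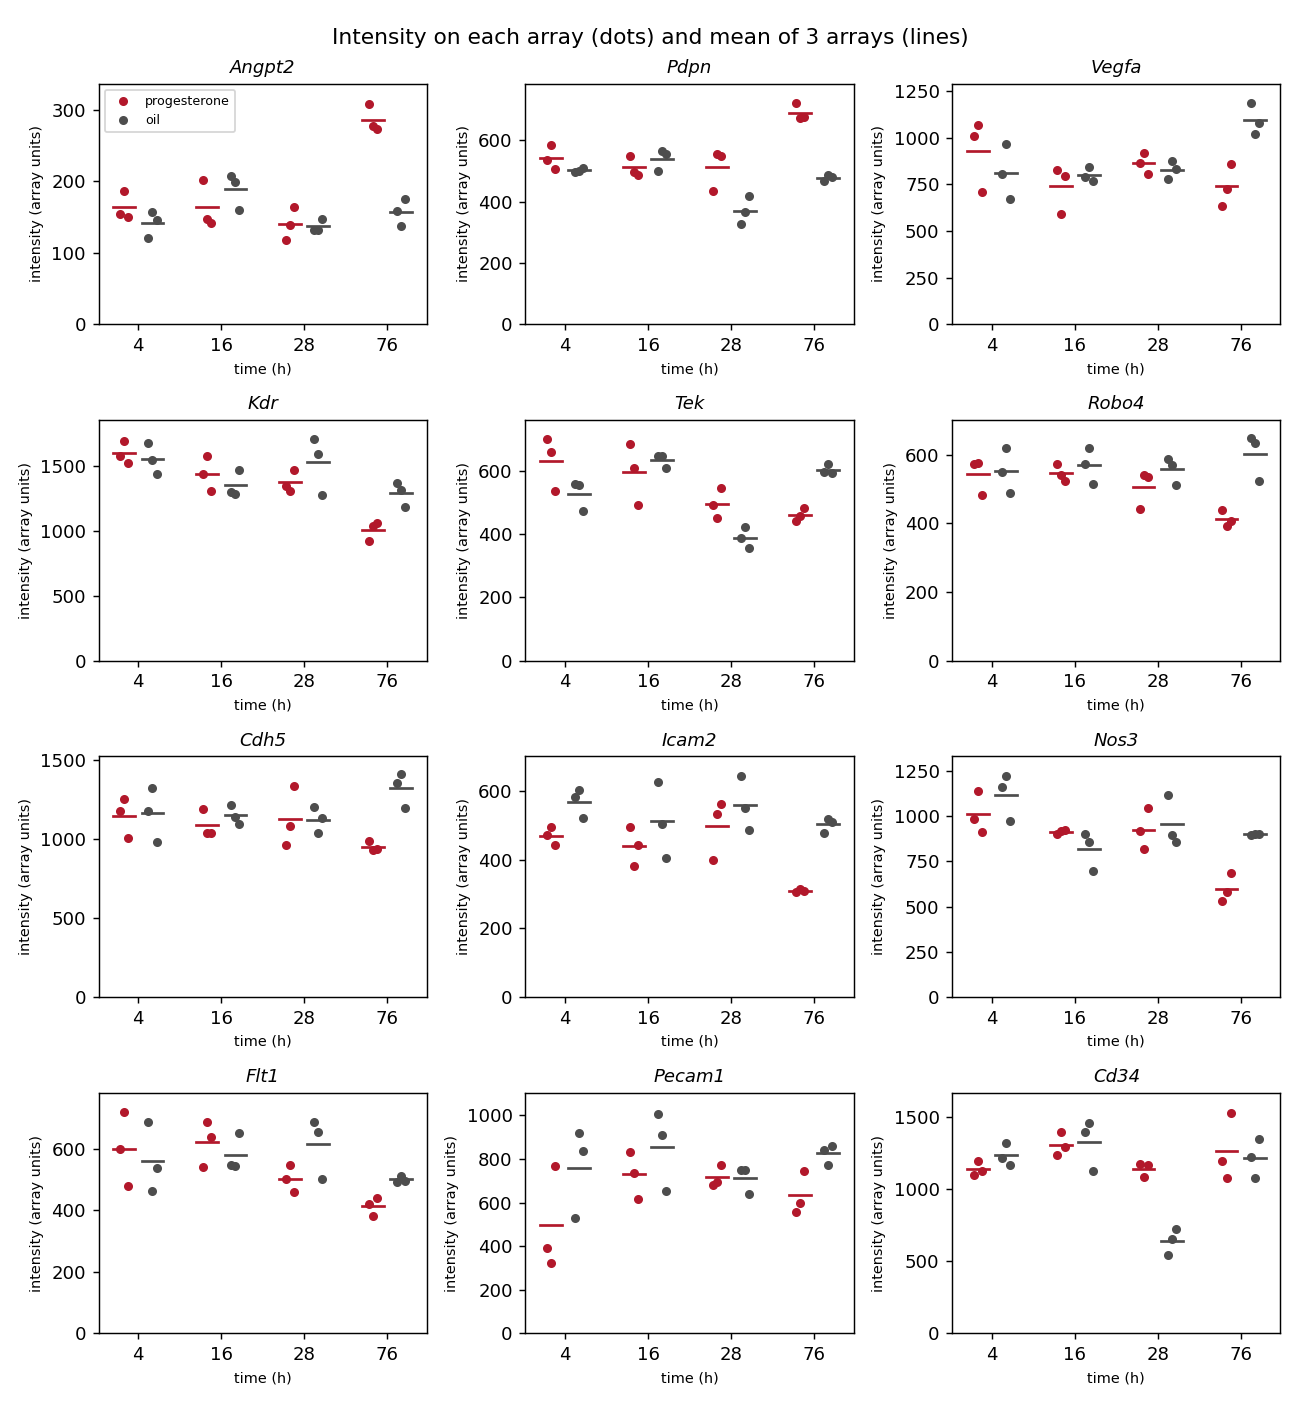
Intensity in array units (linear axis from 0) of 12 endothelial genes on each of the 24 arrays, progesterone (red) left of oil (grey) at each time. Dots are arrays, lines are means of 3 arrays. At 76 h the progesterone dots lie below the oil dots for Vegfa, Kdr, Tek, Robo4, Cdh5, Icam2, Nos3, Flt1 and Pecam1 and above them for Angpt2 and Pdpn, and the 28 h oil dots of Cd34, at 541 to 727, lie below every other dot of that gene.

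Junction and surface proteins gave 4 called genes of 8 at 76 h, all lower, where 6.67% of all genes were called lower. Icam2, an adhesion molecule of resting endothelium, measured 305, 315 and 310 units on progesterone arrays, against 480, 519 and 512 on oil arrays. The progesterone values lay under every other Icam2 value in the study, at 0.617 of the oil level (log2 fold change -0.70, SE 0.14, limma adjusted p = 0.00106). Cdh5, the cadherin of endothelial junctions, measured 986, 932 and 936 units after progesterone, against 1352, 1413 and 1200 after oil. It fell by 0.47 on the log2 scale (SE 0.12, limma adjusted p = 0.00581). When all Cdh5 probe sets were averaged, the difference was -0.20 and was not called (limma adjusted p = 0.386); the second probe set, with a mean of 38.5 units, lay under the filter on low values.

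Cldn5, the claudin that seals endothelial tight junctions, had 449, 540 and 740 units after progesterone, against 1119, 962 and 711 after oil. One progesterone array lay above 1 oil array, so the groups overlapped, although the mean difference was among the largest (-0.70, SE 0.21, limma adjusted p = 0.0242). Cldn5 was no longer called without oil replicate 1, oil replicate 2, progesterone replicate 1 or progesterone replicate 2, with values of -0.89 to -0.53 over the 6 fits, nor against the other oil arrays (-0.27, limma adjusted p = 0.251), with a muscle covariate (limma adjusted p = 0.0505) or with no filter on low values (limma adjusted p = 0.0511). Esam, another junction molecule, was the smallest called change, at -0.32 (SE 0.11, limma adjusted p = 0.0397). It was not called with the replicate number as a block (limma adjusted p = 0.0535), with a muscle covariate (limma adjusted p = 0.0510) or without the intensity trend in the variance (limma adjusted p = 0.0507). Nor was Esam called in the fit over all probe sets (limma adjusted p = 0.0509).

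Pecam1, the classical endothelial adhesion molecule, measured 557, 599 and 743 units on progesterone arrays, against 844, 772 and 860 on oil arrays at 76 h. The progesterone values were all lower, but -0.39 (SE 0.23) was not called (limma adjusted p = 0.270). Plvap, of capillary diaphragms, was at -0.41 (SE 0.19) and Emcn, a sialomucin of capillaries and veins, at -0.34 (SE 0.16), and neither was called. Cd34, which fibroblast-like stromal cells also carry, was level at 76 h (0.05, 95% interval -0.20 to 0.30).

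Of the 5 measured genes for vessel activation, storage and matrix, Nos3 and Mmrn2 were called lower at 76 h, where 6.67% of all genes were. Nos3, the endothelial nitric oxide synthase, measured 533, 578 and 688 units on progesterone arrays, against 896, 903 and 901 on oil arrays. The oil values were nearly equal and the progesterone values all under them, with a log2 fold change of -0.59 (SE 0.12, limma adjusted p = 0.00133). The Nos3 change differed between the times, from near 0 at 28 h (-0.05) to this value. Mmrn2, a matrix protein laid down around endothelium, had 419, 388 and 367 units after progesterone, against 583, 571 and 495 after oil (log2 fold change -0.49, SE 0.16, limma adjusted p = 0.0415). This Mmrn2 call held in 1 of the 6 fits that left out 1 of these arrays, and it was lost with no filter on low values, without the intensity trend or with a muscle covariate (limma adjusted p = 0.0552 to 0.0709). In the fit over all probe sets this Mmrn2 probe set was not called (limma adjusted p = 0.0537). Another one was called there, at -0.49 (limma adjusted p = 0.0154). Further ones, at -0.34 and -0.37, were not (limma adjusted p = 0.191 and 0.212). Egfl7, a secreted endothelial matrix factor, was at -0.27, Vwf, the clotting factor stored in endothelial granules, at -0.08 and Selp, a selectin stored with it, at -0.12, with no call.

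The ETS transcription factor Erg, which maintains endothelial identity, was at -0.35 and not called, although its progesterone arrays (112, 152 and 152 units) lay below its oil arrays (170, 176 and 180). Among the lymphatic markers, Pdpn went the other way from most members. Pdpn, a surface glycoprotein of lymphatic endothelium that myoepithelial cells and fibroblasts also make, measured 720, 674 and 677 units after progesterone, against 467, 485 and 480 after oil. The groups were far apart relative to their spread (log2 fold change 0.53, SE 0.10, limma adjusted p = 0.000563). Lyve1, a hyaluronan receptor of lymphatic vessels and some macrophages, was at -0.20, and Mmrn1 at -0.44, and neither was called.

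**Figure D3:**
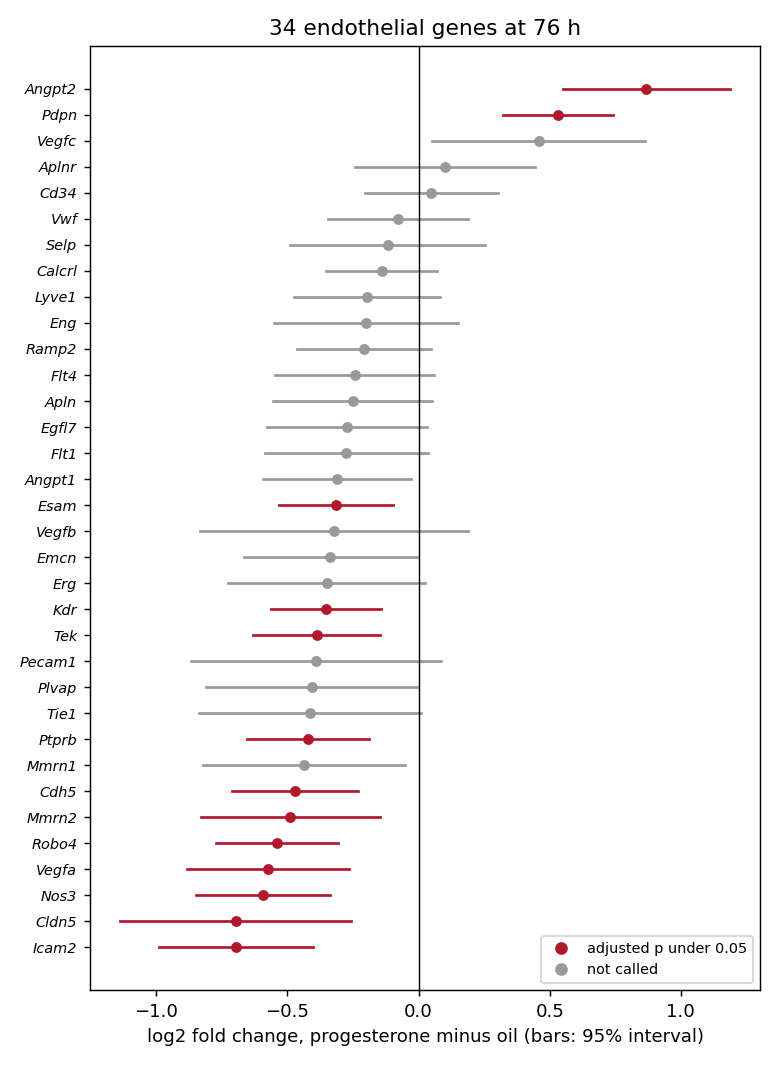
Log2 fold change at 76 h, progesterone minus oil (horizontal axis), with the 95% interval of the limma fit, for the 34 tested endothelial genes sorted by size (vertical axis). Red genes were called at an adjusted p under 0.05: 2 on the right, Angpt2 and Pdpn, and 11 on the left, down to Cldn5 and Icam2 at -0.70.

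The 76 h result was compared with a second set of controls, the oil arrays of the other 3 times. There 14 members were called lower, where 15.7% of all genes were, and 4 higher, where 16.8% were. Of the 13 calls against the 76 h oil arrays, 9 were among these 18 in the same direction, 69.2% of the first list and 50% of the second. Tek, Cldn5, Mmrn2 and Vegfa were called only against the 76 h oil arrays. Flt1, Tie1, Eng, Erg, Plvap, Ramp2 and Angpt1 were called lower, and Cd34 and Vegfc higher, only against the other oil arrays, which hold the low 28 h oil arrays of Cd34. The 2 comparisons share the progesterone arrays. Without 1 array the count at 76 h was lowest, at 7, without oil replicate 1 or without progesterone replicate 1, and it was 8 without oil replicate 2. Cdh5, Robo4, Icam2, Nos3, Pdpn and Angpt2 were called whichever of the 6 arrays was left out. Ptprb was not called without oil replicate 1 (limma adjusted p = 0.0543), nor Vegfa without progesterone replicate 1 (limma adjusted p = 0.0694). Kdr was not called without oil replicate 1 or 2 or progesterone replicate 1, with values of -0.42 to -0.29 over the 6 fits. Tek was not called without replicate 1 or 2 of either group (-0.42 to -0.36). Esam was called only without progesterone replicate 3 (-0.38 to -0.24) and Mmrn2 only without oil replicate 3 (-0.56 to -0.44).

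At 28 h, 2 members were called higher, Cd34 and Pdpn, where 1.95% of all genes were higher, and 0 were called lower, where 0.592% of all genes were. Cd34 measured 1178, 1083 and 1172 units on progesterone arrays, against 541, 655 and 727 on oil arrays. The low side was the oil group, since the oil arrays at the other times held 1078 to 1459 units. The log2 fold change was 0.85 (SE 0.12, limma adjusted p = 0.000206), but against the other-time oil arrays it was -0.13 (limma adjusted p = 0.566), which turns its direction. Pdpn measured 434, 554 and 548 units after progesterone, against 327, 365 and 417 after oil, at 0.47 (SE 0.10, limma adjusted p = 0.00942). Against the other oil arrays Pdpn was level, at 0.01 (limma adjusted p = 0.972), and it was not called without oil replicate 1 or progesterone replicate 3 (0.38 to 0.58 over the 6 fits). With those controls 0 of 34 members were called in either direction at 28 h, where 0.875% of all genes were.

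The 28 h oil group stood apart from the other oil groups in this list. A direct comparison called 8 members lower there, where 6.11% of all genes were called lower. Cd34 fell by 0.98 (SE 0.10) on the log2 scale and Tek by 0.60 (SE 0.10), with 387, 422 and 354 units on the 28 h oil arrays, where the other oil arrays held 471 to 647. Emcn fell by 0.51, with 339, 304 and 387 units at 28 h, against 400 to 578 at the other times. Aplnr, the apelin receptor, fell by 0.56, and its values of 1290, 1022 and 777 units overlapped with the others (1211 to 1799). Pdpn fell by 0.46, with 327, 365 and 417 units at 28 h, against 467 to 564 at the other times. Cd34, Tek, Emcn and Pdpn were thus separate from the other oil arrays. Selp fell by 0.48 (98.9, 83.2 and 79.1 units at 28 h, against 95.5 to 154), Lyve1 by 0.43 (626, 691 and 896 units, against 788 to 1238) and Calcrl by 0.41 (512, 551 and 625 units, against 580 to 853), all with overlap. The limma adjusted p for the 8 genes lay between 6.07e-07 and 0.0436. Kdr, Cdh5 and Robo4 were not called in that comparison.

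Genes of some other cell types were also low on the 28 h oil arrays, where 6.11% of all genes were called lower and 1.5% higher. Of 17 fibroblast and matrix genes, 16 were lower in the 28 h oil arrays, with summed values of 54496 to 61604 units, against 75243 to 88845 on the other oil arrays. Skeletal muscle genes summed to 15573 to 25035 units there, against 12427 to 79783 on the other oil arrays, and 8 of 18 were called lower. Epithelial and adipocyte genes were not called in that comparison (0 of 20 and 0 of 15, with medians of -0.0018 and -0.01), leukocyte genes gave 6 lower and 1 higher of 17, and mitosis genes were all 19 positive, 5 of them called higher. The part of these cell types in the Cd34 and Pdpn results was not tested. A fit of all oil groups gave 12 of the 34 members as different between times (Tek, Eng, Emcn, Cd34, Selp, Lyve1, Pdpn, Aplnr, Mmrn2, Ramp2, Calcrl and Vegfb), where 12.2% of all genes were called by that F-test.

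At 4 h, 0 of the 34 members were called, where 0.186% of all genes were called in either direction, and 6 members had an unadjusted p under 0.05, where 12.6% of all genes did. The median change was 0.02, with -0.06 to 0.07 when 1 array of that time was left out and -0.09 to 0.08 under other normalizations or probe-set choices, and the values ran from -0.68 for Pecam1 to 0.44 for Vegfc. Pecam1 measured 392, 325 and 769 units after progesterone, against 529, 917 and 837 after oil, so that 1 progesterone array lay among the oil arrays (SE 0.23, limma adjusted p = 0.196). Without that array, progesterone replicate 3, Pecam1 was called at -1.05, the only member at 4 h. All 3 progesterone arrays lay below all 3 oil arrays for 7 members (Egfl7, Eng, Esam, Icam2, Mmrn2, Plvap and Ramp2), where 12.9% of all genes showed that order, and above them for Lyve1, where 6.12% did. The lowest of the 7 were Plvap at -0.45 and Eng at -0.36 (limma adjusted p = 0.320 and 0.387). In the fit over all probe sets, a second, dimmer Eng probe set was at -0.0038 (limma adjusted p = 0.996). Further Mmrn2 probe sets were at -0.07, -0.04 and 0.15 there, and further Egfl7 ones at -0.22, -0.18 and -0.19, none of them called. The log2 ratio of the 3′ to the 5′ actin probe set, a sign of RNA length, was 0.506 to 0.590 on the 4 h progesterone arrays, against 0.408 to 0.437 on the 4 h oil arrays (exact permutation p = 0.1, two-sided, the smallest 3 against 3 can give), and its part in these values was not tested. Against the other-time oil arrays 2 members were called, where 6.53% of all genes were: Pecam1 at -0.78 and Mmrn2 at -0.51.

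At 16 h, 0 of the 34 members were called, where 0.308% of all genes were, and 3 had an unadjusted p under 0.05, where 17.7% of all genes did. The median was -0.13, against -0.07 over all genes. Without oil replicate 1 it was -0.07, without oil replicate 2 -0.09 and without progesterone replicate 2 -0.09, while it was -0.21 without progesterone replicate 1. With quantile normalization it was -0.07, against -0.02 over all genes, and with the probe sets of a gene averaged it was -0.06, as over all genes; with array weights it was -0.26, against -0.12 over all genes. The values ran from -0.43 for Lyve1 to 0.32 for Apln. Lyve1 measured 1062, 721 and 840 units on progesterone arrays, against 1097, 1238 and 1147 on oil arrays (SE 0.13, limma adjusted p = 0.162). Without progesterone replicate 1, the highest of the 3, Lyve1, Mmrn2 and Angpt1 were called lower. In the fit over all probe sets and all arrays, a second, dimmer Lyve1 probe set was at -0.08 (limma adjusted p = 0.773). Further Mmrn2 probe sets were at 0.23, -0.22 and -0.28 there, and a second Angpt1 one at -0.34, none of them called. Against the other-time oil arrays 1 member was called, where 4.51% of all genes were: Cd34 at 0.41, in a control set that holds the low 28 h oil arrays.

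The F-test of whether the progesterone difference itself changed over the 4 times called 5 members, Angpt2, Tek, Cd34, Nos3 and Pdpn, where 9.98% of all genes were called. Angpt2 gave 0.21, -0.22, 0.01 and 0.87 at 4, 16, 28 and 76 h (limma adjusted p = 0.00803). Kdr gave 0.04, 0.09, -0.14 and -0.35, and its F-test did not pass (limma adjusted p = 0.117). Robo4 and Cdh5 also did not pass (limma adjusted p = 0.0928 and 0.147), so that a difference of their 76 h change from that at earlier times was not shown.

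A longer list of 68 other endothelial and angiogenesis genes, kept apart from the 36, was read in the same fit. At 76 h 18 of the 68 were lower and 3 higher, with a median of -0.23, against backgrounds of 6.67% and 11.0%. The largest drop in that list was Gpihbp1, the capillary anchor of lipoprotein lipase, at -0.72 (909 ± 135 units after progesterone and 1493 ± 109 units after oil, SD, n = 3 each). The 3 higher genes were Thbs1 and Thbs2, matrix proteins that restrain vessel growth, at 1.57 and 0.85, and Reln, a glycoprotein made by lymphatic endothelium among other cells, at 1.44. At 28 h the called genes were Thbs1, Rhoj, Ednrb and Thbs2, which were higher, and Vcam1, which was lower. Over all genes, 1.95% were called higher there and 0.592% lower. Against the other-time oil arrays, however, 0 of the 68 were called, where 0.875% of all genes were. At 4 and 16 h 0 of the 68 were called, where 0.186% and 0.308% of all genes were.

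Of 19 measured genes of mural cells, which wrap the vessels, 4 were higher and 6 lower at 76 h, where 11.0% of all genes were called higher and 6.67% lower. The higher ones were the contractile genes Tagln (0.86), Cnn1 (0.71) and Acta2 (0.49), which myoepithelial cells share, and Pdgfrb (0.54), the receptor of pericytes and fibroblasts. The lower ones were led by the pericyte genes Cspg4 (-0.78) and Rgs4 (-0.69). Of 16 hypoxia and glycolysis targets, with which Vegfa is often induced, 6 were lower, led by Hk2, the hexokinase of muscle and fat (771 ± 91.9 units after progesterone and 1546 ± 231 units after oil, SD, n = 3 each), with Higd1a and Pfkfb3 both at -0.46, and 1 was higher, Egln3 at 0.55.

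Marker genes of other cell types also differed at 76 h, where 11.0% of all genes were called higher and 6.67% lower. Epithelial genes, 19 of 20 of which were called higher at 76 h, summed to 21453 to 24443 units on progesterone arrays, against 7114 to 8835 on oil arrays. Mitosis genes were higher for 18 of 19. Adipocyte genes summed to 54328 to 63550 units on progesterone arrays, against 69649 to 70305 on oil arrays (0.838 of the oil mean). Of these 15 genes, 5 were called lower: Cidea at -1.32, Slc2a4 at -0.88, Gpd1 at -0.47, Retn at -0.28 and Lpl at -0.17. Fibroblast and matrix genes, 9 of 17 of which were called higher, summed to 90507 to 97912 units on progesterone arrays, against 75243 to 81539 on oil arrays (1.19 times the oil mean). The endothelial genes summed to 17834 to 20373 units on progesterone arrays, against 22080 to 23218 on oil arrays, 0.831 of the oil mean. With 3 arrays against 3, the exact permutation test, two-sided, gave p = 0.1 for each of the endothelial, epithelial, adipocyte and fibroblast sums, the smallest it can give. The part of these differences in the endothelial result, and of the fibroblast genes in the Pdpn result, was not tested.

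Leukocyte genes gave 4 lower and 1 higher of 17 at 76 h, where 6.67% of all genes were called lower and 11.0% higher. They summed to 29928 to 31927 units on progesterone arrays, against 33379 to 36247 on oil arrays. Skeletal muscle genes, 0 of 18 of which were called, summed to 16275 to 29587 units, against 12427 to 44843. The 3′ to 5′ actin ratio (log2) was 0.370 to 0.454 on progesterone arrays, against 0.308 to 0.374 on oil arrays at 76 h (exact permutation p = 0.3).

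**Figure D4:**
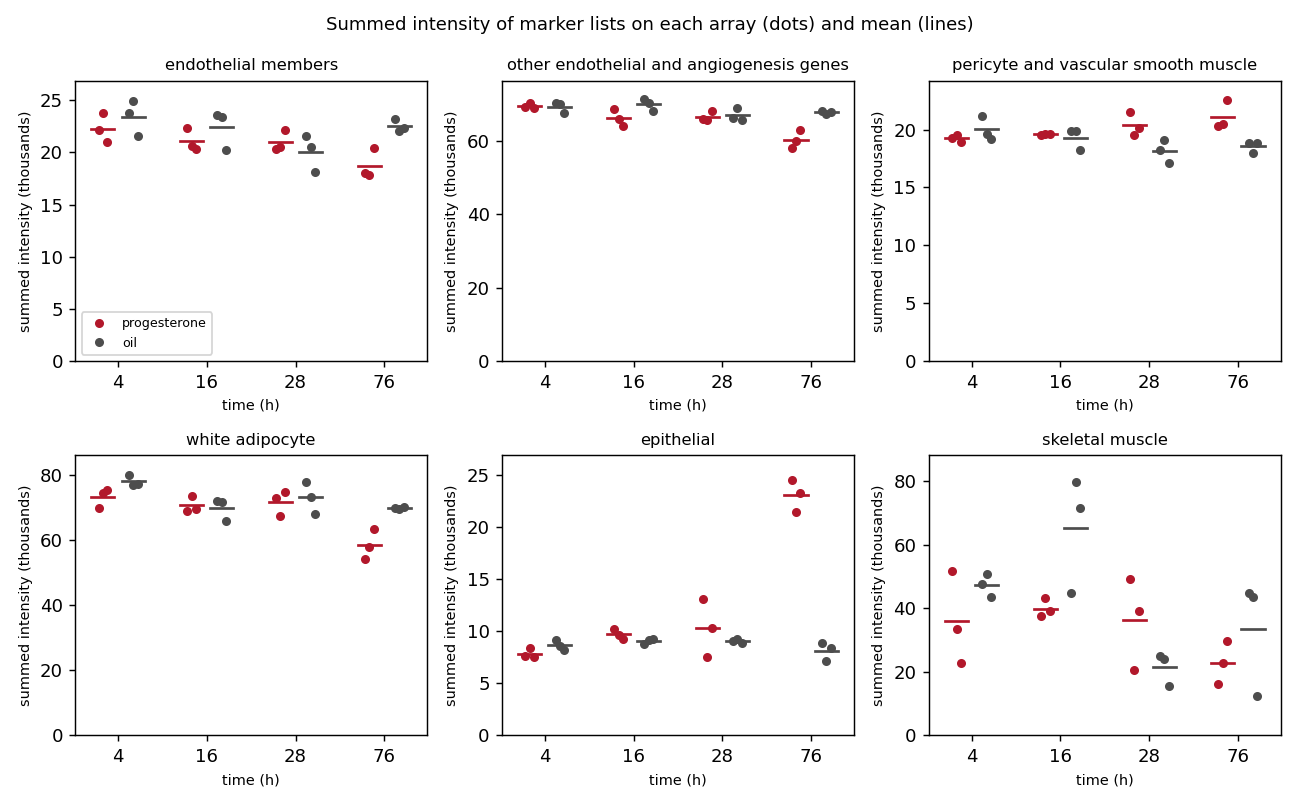
Summed intensity (vertical axes from 0, labelled with their scale) of 6 gene lists on each array, progesterone (red) left of oil (grey) at each time, with lines at the mean of 3 arrays. At 76 h the endothelial and adipocyte sums lie lower after progesterone, at 0.831 and 0.838 of oil, while the epithelial sum lies higher, at 2.84 times oil, and the muscle sums scatter widely.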

How the data were processed

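Mammary gland RNA, isolated with Trizol, was biotin-labelled in 1 cycle and put on 24 arrays of 45101 probe sets, per the labels' protocols. The deposited intensity is on a linear scale. Which software summarized the probes, and how arrays were normalized, is not given in the sources that were used. Every array is a pool of 5 mice and a biological replicate per the labels, so p-values measure the spread between pools. Here, values under the 10th percentile (7.38) were raised to it and log2 was taken. Array log2 medians spanned 0.16, under the limit of 0.3 for a further normalization. The 64 control probe sets were left out. In the platform annotation 34945 probe sets have 1 symbol, 932 several and 9160 none, and all 36 member symbols are current in RefSeq. Genes had to lie above the array median on at least 3 arrays. limma 3.58.1 in R 4.3.3 fitted 1 mean per group over 24 arrays (16 residual degrees of freedom, intensity trend in the variance, two-sided tests). A separate fit over all probe sets that passed the filter gave the values of further probe sets. The code was tested on simulated data. Alternatives covered filter, floor, normalization, probe-set choice, variance model, threshold, controls, a replicate block, a muscle covariate and leaving out arrays.

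The members and lists were chosen with earlier results of these data known. All members are named; values per array are given for members called in a comparison (at most the 10 largest changes at a time) and for Kdr, Flt1, Vegfa, Angpt1, Angpt2, Pecam1 and Cdh5. Up to 4 called genes per other list and time are named, and further ones only to complete a count of 5 or fewer.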

Additional observations from a re-analysis of the deposited data

Results flagged for a closer look

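For 5 endothelial genes the difference between progesterone and oil was not the same at the 4 times, by limma's moderated F-test adjusted over all genes, which called 5 of 34 members, where 9.98% of all genes were called. The adjusted p was 0.00803 for Angpt2, which was at 0.21, -0.22 and 0.01 on the log2 scale at 4, 16 and 28 h and at 0.87 at 76 h. It was 0.0273 for Nos3, at -0.14, 0.17, -0.05 and -0.59 at the 4 times in order. It was 0.0112 for Tek, at 0.25, -0.11, 0.35 and -0.39. It was 0.0133 for Pdpn, at 0.11, -0.08, 0.47 and 0.53. It was 0.00146 for Cd34, at -0.12, -0.01, 0.85 and 0.05. For Cd34, Tek and Pdpn the 28 h oil arrays, which were lower than the other oil arrays, enter these values. With oil arrays from the other times as controls, the 28 h differences were -0.13 for Cd34 and -0.24 for Tek, which turns their direction, and 0.01 for Pdpn. No cause was tested.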

How the results depend on the processing

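Counts of called members were recomputed under each alternative. At 76 h (13 members) the count was 7 at an adjusted p under 0.01, where 1268 of all genes were called. It was 27 with array weights, a setting that also called 4818 of all genes. It ran from 7 to 14 without 1 array. At 28 h (2 members) it was 0 with the oil arrays of the other times, 1 with the 6 arrays of that time alone, 4 with array weights and 1 to 2 without 1 array. At 4 h (0) it was 2 with the other oil arrays, 13 with array weights and 0 to 1 without 1 array. At 16 h (0) it was 1, 24 and 0 to 3 in the same order. Array weights also called 2769 of all genes at 4 h, 7319 at 16 h and 1623 at 28 h. The rise in member counts under that setting was thus not limited to the members. The F-test between times (5) gave 12 with quantile normalization, 28 with array weights, 9 and 2 at adjusted p under 0.1 and 0.01, and 4 to 10 without 1 array. The F-test of the oil groups (12) gave 7 with no filter, 26 with array weights, 5 at adjusted p under 0.01, 7 with the muscle covariate, 4 without the 28 h arrays and 5 to 13 without 1 array. The oil arrays at 28 h against other oil (8, all lower) gave 19 with array weights, 4 at adjusted p under 0.01 and 5 with the muscle covariate. Without 1 array they gave 5 to 9. These alternative counts take calls in either direction. Progesterone at 28 h against other oil (0) gave 7 with array weights and 0 to 2 without 1 array. For these F-tests and oil comparisons, all-gene counts under the alternatives are not given, nor for the fits without 1 array. Those member counts thus do not show whether the changes were limited to the members. The direction of Cd34 at 28 h turned with the other oil arrays (-0.13). The cause was not tested. Deviations from the group means correlated at a median of 0.11 between arrays of a time with the same replicate number (-0.02 to 0.34 over 12 pairs). The median was -0.08 with different numbers (24 pairs). These values do not decide whether arrays with the same number belong together, and the main fit did not take the numbers as pairs. The fit with the replicate block gave 0, 0, 2 and 12 members at 4, 16, 28 and 76 h, with 5 and 12 for the F-tests. The fit without the 28 h arrays and the counts with other oil arrays were chosen after seeing the data.

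Robo4, Icam2, Nos3 and Pdpn were called at 76 h under each of the 16 settings other than leaving out arrays, and Angpt2 under the 15 in which it was tested. With the probe sets of a gene averaged, Angpt2 was not tested: its second probe set had a mean of 6.24 units, and the average lay under the filter. The median change of the members at 76 h lay between -0.36 and -0.30 under the settings other than leaving out arrays or changing the controls. With 3 pools per group, the precision is limited by the number of arrays, and values of the dimmer genes (Vegfc, Selp, Apln, Mmrn1) lie nearest to background.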
